A study of Mus musculus with 11 samples.

Results

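Collagen chain mRNAs in mouse liver were examined as a group of 10 genes, chosen by name with earlier results of these data known. The 10 are the fibrillar chains *Col1a1*, *Col1a2*, *Col3a1*, *Col5a1* and *Col5a2*, the basement membrane chains *Col4a1* and *Col4a2*, and the type VI chains *Col6a1*, *Col6a2* and *Col6a3*. All 10 were found among the 13669 genes of the deposited count table and among the 13334 genes tested. The livers came from male wild-type C57BL/6J mice on regular chow, obtained at 6 weeks of age and acclimated before use. Both groups had received a recombinant adeno-associated virus of serotype 8 (rAAV8) into the tail vein. Its payload was driven by LP1, a promoter built from a human apolipoprotein control region and a human alpha-1-antitrypsin promoter, which acts in hepatocytes. In 6 animals it encoded a tough decoy RNA with one site for *miR-379* and one for *miR-541* (AAV-TuD), and in 5 animals a negative control sequence (AAV-NC). Animals with the same construct are treated as replicates, and the P values measure the spread between these livers. The study killed animals given these vectors after a fast of several hours, weeks to months after the injection. The exact time for these livers is not given in the sources used here.

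A collagen molecule is a helix of 3 alpha chains. Types I and III, with type V inside them, assemble into the fibrils of connective tissue. Type IV forms the sheet of basement membranes, and type VI forms beaded filaments between the fibrils and the cells. In a healthy liver the fibrillar chains are made mainly by hepatic stellate cells and portal fibroblasts rather than by hepatocytes, and they are the main components of scar in fibrosis. In RNA from whole liver, fewer cells of a type and less RNA per cell cannot be told apart.

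Some of these genes lie side by side, and the bases where a pair of them meets are shown. *Col4a1* (chromosome 8, 11198423 to 11312826 in GRCm38, minus strand) and *Col4a2* (chromosome 8, 11312805 to 11449287, plus strand) point away from each other, and their annotated first exons overlap by 22 bases at chr8:11312805-11312826. The shared bases are given on the plus strand, all in capitals because both genes are annotated there.

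Col4a1 and Col4a2 overlap: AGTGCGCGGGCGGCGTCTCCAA

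*Col3a1* (chromosome 1, 45311538 to 45349706, plus strand) and *Col5a2* (chromosome 1, 45374321 to 45503282, minus strand) end toward each other with 24614 bases and no annotated gene between them. *Col6a1* (chromosome 10, 76708792 to 76726168) and *Col6a2* (chromosome 10, 76595762 to 76623630) are on the minus strand of 1 chromosome, 85161 bases apart. The other members stand alone, *Col1a1* on chromosome 11 (94936224 to 94953042), *Col1a2* on chromosome 6 (4504814 to 4541544), *Col5a1* on chromosome 2 (27886425 to 28039514) and *Col6a3* on chromosome 1 (90765923 to 90843971). Exons of *Col3a1*, *Col5a1* and *Col4a2* overlap those of noncoding genes, and the strand setting of the counting is not given in the sources used here, so reads from such overlaps cannot be told apart. The last 500 bases of each member matched no other gene's transcript at 95% identity over 50 bases or more.

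The stretch before the start site differed in kind between the members. RefSeq promoter windows (GRCm38.p6, 250 bases before and 50 after the start) were given for 8 of the 10 (9 windows, with 2 for *Col6a2*), and their GC content ran from 37.7% for *Col3a1* to 75.0% for *Col5a1*, with a median of 61.0% against 52.7% for all 32851 windows. The 250 bases before the start of *Col3a1* and *Col1a2* are shown as the window poorest in G and C and that of its fibril partner. Capitals mark matches, on either strand, to the motifs TATAAA and CCAAT, the GC box GGGCGG and the TEAD core GGAATG.

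Col3a1, chr1:45311288-45311537, plus strand: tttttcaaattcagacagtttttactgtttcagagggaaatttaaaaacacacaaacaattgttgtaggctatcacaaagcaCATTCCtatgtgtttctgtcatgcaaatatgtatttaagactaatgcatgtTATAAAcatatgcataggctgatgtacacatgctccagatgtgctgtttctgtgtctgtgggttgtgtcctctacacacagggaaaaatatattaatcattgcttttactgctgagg

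Col1a2, chr6:4505368-4505617, plus strand: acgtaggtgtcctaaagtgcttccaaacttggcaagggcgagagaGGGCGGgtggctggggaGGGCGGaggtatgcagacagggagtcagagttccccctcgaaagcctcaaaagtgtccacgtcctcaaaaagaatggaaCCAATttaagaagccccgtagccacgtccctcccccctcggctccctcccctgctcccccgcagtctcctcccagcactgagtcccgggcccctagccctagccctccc

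TATAAA was found for 1 of the 8 members (*Col3a1*) and in 13.62% of all windows, and CCAAT for 3 (*Col1a2*, *Col4a1*, *Col4a2*) and in 37.41%. GGGCGG was found for 5 members and in 35.66% of all windows, GGAATG for 2 (*Col3a1*, *Col6a2*) and in 14.66%, and TGANTCA, the AP-1 core, for 1 (*Col6a1*) and in 7.81%. The GGGCGG match of *Col4a1* lies in the overlap shown above and is the same site as a match of *Col4a2*. Both strands were searched, and none of these motifs contains another. No motif searched was found for all 8 members.

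The decoy was directed at miRNAs, so the 3′ UTRs of the collagen mRNAs were searched for the complement of each miRNA seed. The labels name no arm of *miR-379* or *miR-541*; the study's assays for these miRNAs were for the 5p arms, which were taken here. The mature sequences are from RefSeq, with the seed (bases 2 to 8) in capitals. The first pair are the decoy's targets, the next 4 lie in the same miRNA cluster, and miR-29a is shown as the family best known for binding collagen mRNAs. For *miR-409* the study's assay was for the 5p arm, whose seed was not searched.

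miR-379-5p: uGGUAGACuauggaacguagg

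miR-541-5p: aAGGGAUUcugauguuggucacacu

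miR-382-5p: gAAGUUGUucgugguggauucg

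miR-134-5p: uGUGACUGguugaccagagggg

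miR-409-3p: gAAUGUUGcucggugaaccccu

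miR-410-3p: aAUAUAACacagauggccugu

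miR-29a-3p: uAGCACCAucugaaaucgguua

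The 7 miRNAs have 7 different seeds, and miR-29b-3p and miR-29c-3p share the seed of miR-29a-3p. In the longest 3′ UTR of a protein-coding transcript (GENCODE M21), 0 of the 10 members held a match to the first decoy target (miR-379-5p) and 0 to the other (miR-541-5p), against 5.2% and 8.95% of the 10928 tested genes with such a UTR. The seed of miR-382-5p was matched in 0 members against 10.91% of genes. That of miR-134-5p was matched in *Col5a2* and *Col6a2* against 12.39%, that of miR-410-3p in the same genes against 9.62%, and that of miR-409-3p in *Col5a2* alone against 9.86%. The *Col6a2* matches to miR-134-5p and miR-410-3p lie only in the transcript with the longer UTR (1763 bases), not in that with the shorter one (451 bases). UTR lengths of the members were between 732 and 2498 bases, with a median of 1174.5 against 1214.5 for all genes.

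The miR-29 seed was matched in 8 of the 10 members, all but *Col1a2* and *Col6a1*, and in 15.96% of genes. *Col5a1* held 4 such matches and *Col4a2* 2. One site from each of 4 members is shown as DNA in the sense of the mRNA, with the match in capitals and 10 bases on each side.

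Col1a1, chr11:94952528-94952554, plus strand: aaggaatttcTGGTGCTatagaagctg

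Col3a1, chr1:45348972-45348998, plus strand: aatgtctcaaTGGTGCTataataaata

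Col4a1, chr8:11199752-11199778, minus strand: cgtcacaacaTGGTGCTactccccccc

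Col6a3, chr1:90767402-90767428, minus strand: cctgtcaataTGGTGCTaaatgtgtct

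These matches describe the letters of the UTRs. The miRNAs were not measured in these libraries, and a seed match is not a measured binding site. In its own assays of livers with this decoy, the study reported *miR-29a* as not affected. It reported *miR-379*, *miR-541*, *miR-382*, *miR-134* and *miR-409* as lower.

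Between 8148531 and 12043959 reads per liver had been counted on genes, and levels are given in CPM, which relates a gene's reads to the TMM-scaled library size. The libraries read the 3′ ends of mRNAs, so a level is not divided by gene length. The hepatocyte product *Alb* was at 21096 CPM in AAV-NC livers and 28044 CPM in AAV-TuD livers. Genes of the major urinary proteins (*Mup*) took 38.6% of reads in AAV-NC 7, 30.9% in AAV-TuD 3 and 28.4% in AAV-TuD 5, and between 8.09% and 18.7% in the others. These 3 livers are kept, and counts without them are given for the chains and beside lists that lost calls. Differential expression was tested with the quasi-likelihood test of edgeR, with Benjamini-Hochberg adjustment over all 13334 genes, and a gene was called at an adjusted P under 0.05.

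All 10 collagen chains were higher in AAV-TuD livers, by 1.97- to 4.92-fold. Over all genes tested, 7.24% were called higher and 4.33% lower. The median log2 fold change of the 10 chains was 1.39, and that of all genes was -0.00. For 8 of the 10 chains, the lowest treated liver exceeded the highest control, an ordering found in 4.11% of all genes. *Col5a1* and *Col5a2* were the exceptions. Low-count genes need care here. A gene was tested when over 10 reads were found in at least 5 livers, and no AAV-NC liver had that many *Col6a2* reads, 3 had that many for *Col5a2* and 4 for *Col6a1*, against 6 of 6 AAV-TuD livers for each. These 3 chains passed only through the group in which they were higher, so their presence among the genes tested favored a higher level. The other 7 passed in all 11 livers, and all 7 were called. With no filter applied here all 10 were called. None of the other collagen genes listed below that went untested was in the deposited table of 13669 genes. Genes may thus have been selected before deposition, by a rule not given in the sources used here. Leaving out the filter cannot remove such a selection.

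**Figure D1:**
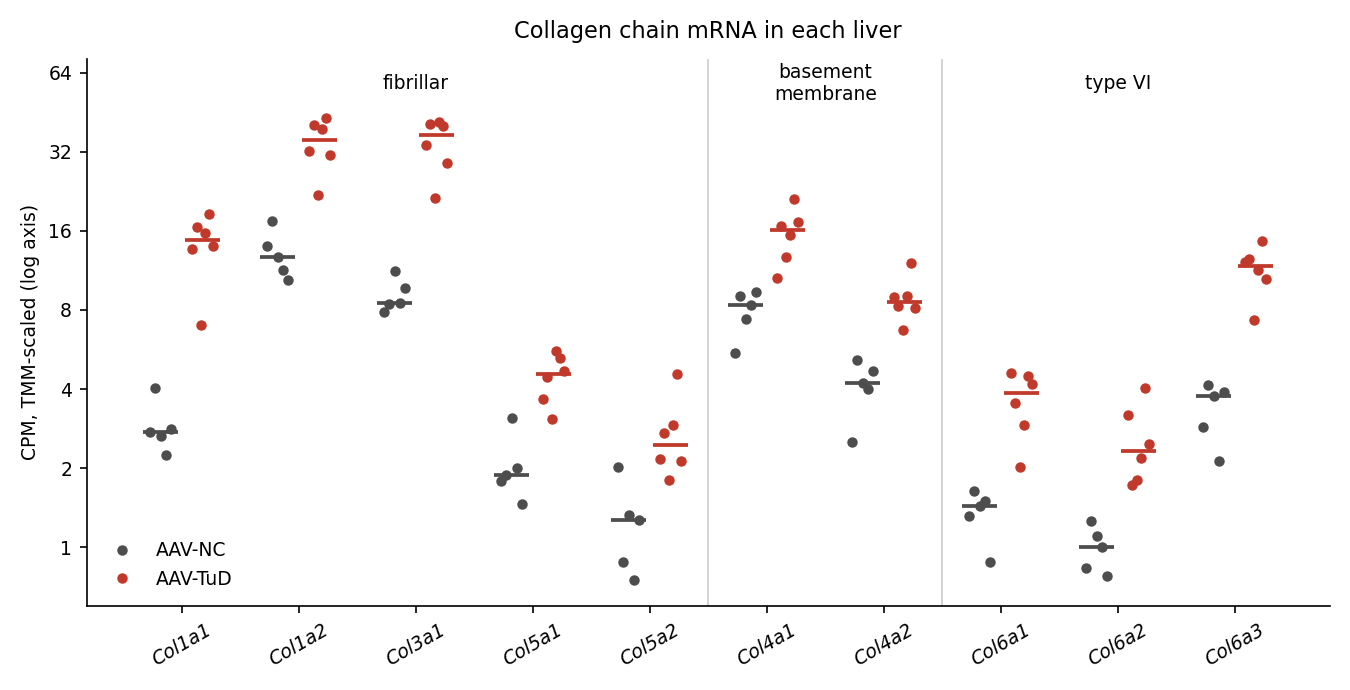
CPM of the 10 collagen chains on a log axis, one point per liver, in 5 AAV-NC (gray) and 6 AAV-TuD (red) livers; the bars are group medians. The red points lie above all gray points for every chain but *Col5a1* and *Col5a2*, and *Col1a2* and *Col3a1* are the most abundant.

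Type I collagen, the chief protein of scar and bone, is built from 2 chains of *Col1a1* and 1 of *Col1a2*. *Col1a1* was at 2.75, 4.03, 2.66, 2.25 and 2.82 CPM in AAV-NC livers 1, 2, 6, 7 and 8, and between 7.01 and 18.5 CPM, with a median of 14.8 CPM, in the AAV-TuD livers. The groups were well apart, and the lowest treated liver, AAV-TuD 5, stood away from the other 5. The means were 2.90 ± 0.667 CPM (SD, n = 5) and 14.2 ± 3.96 CPM (SD, n = 6), a log2 fold change of 2.30 ± 0.23 (SE; edgeR, adjusted P = 3.88e-05), the largest of the 10. *Col1a2* was at 14.0, 17.4, 12.7, 11.4 and 10.4 CPM in the same AAV-NC livers and between 21.9 and 43.1 CPM, with a median of 35.5 CPM, with AAV-TuD. Again the lowest treated liver was AAV-TuD 5, above the highest control, AAV-NC 2. Its log2 fold change was 1.40 ± 0.17 (SE; edgeR, adjusted P = 0.000193), from 13.2 ± 2.70 to 34.6 ± 7.80 CPM.

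*Col3a1*, whose product forms fibrils of 3 identical chains and is abundant in soft organs, was at 7.88, 8.43, 11.3, 8.51 and 9.73 CPM in AAV-NC livers and between 21.2 and 41.6 CPM, with a median of 37.0 CPM, in AAV-TuD livers. Its AAV-NC values were the tightest of any member, with a coefficient of variation of 14.9%. The log2 fold change was 1.91 ± 0.17 (SE; edgeR, adjusted P = 1.52e-05), and *Col3a1* ranked 5 of all 13334 genes by P.

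Type V collagen sits in the core of type I fibrils and limits their width. *Col5a1* was at 1.79, 1.89, 3.10, 2.0 and 1.46 CPM in AAV-NC livers and between 3.08 and 5.59 CPM, with a median of 4.58 CPM, with AAV-TuD. The groups met at 1 point, where AAV-NC 6 lay just above AAV-TuD 5. *Col5a2* was at 2.03, 0.881, 1.33, 0.751 and 1.27 CPM against 1.81 to 4.57 CPM, with a median of 2.45 CPM, on 6 to 53 reads per liver. Here AAV-NC 1 lay above AAV-TuD 5, and the spread was the widest of the 10 chains, with coefficients of variation of 39.9% and 36.6%. The log2 fold change was 1.13 ± 0.22 (SE; edgeR, adjusted P = 0.00479) for *Col5a1* and 1.11 ± 0.30 (SE; edgeR, adjusted P = 0.0251) for *Col5a2*. The *Col5a2* call depended on single livers: the adjusted P of edgeR was 0.0593 without AAV-NC 2, 0.0590 without AAV-NC 7 and 0.0512 without AAV-TuD 10, with log2 fold changes of 1.02, 0.99 and 0.91.

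Summed over the 5 fibrillar chains, the level was between 24.9 and 32.6 CPM in AAV-NC livers and between 55.0 and 111.5 CPM in AAV-TuD livers, with means of 28.5 ± 3.33 and 90.5 ± 21.1 CPM. *Col1a2* and *Col3a1* made up most of these reads in both groups.

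Type IV collagen of most basement membranes combines 2 chains of *Col4a1* with 1 of *Col4a2*. *Col4a1* was at 5.49, 9.06, 7.42, 8.39 and 9.34 CPM in AAV-NC livers and between 10.6 and 21.2 CPM, with a median of 16.1 CPM, in AAV-TuD livers. The groups did not overlap, though AAV-TuD 3 came close to AAV-NC 8. *Col4a2* was at 2.51, 5.16, 4.21, 4.01 and 4.67 CPM against 6.69 to 12.1 CPM, with a median of 8.61 CPM. AAV-NC 1 was lowest among controls for both chains, and AAV-TuD 10 highest among treated livers for both. The log2 fold changes were 0.98 ± 0.17 (SE; edgeR, adjusted P = 0.00305) for *Col4a1*, the smallest of the 10, and 1.11 ± 0.18 (SE; edgeR, adjusted P = 0.00174) for *Col4a2*. Together they rose from 12.1 ± 2.52 to 24.5 ± 5.07 CPM.

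Type VI collagen joins 1 chain each of *Col6a1*, *Col6a2* and a further chain, usually *Col6a3*, the longest of them. *Col6a1* was at 1.31, 1.64, 1.44, 1.5 and 0.876 CPM in AAV-NC livers and between 2.02 and 4.6 CPM, with a median of 3.87 CPM, with AAV-TuD. All treated livers lay above all controls, on 9 to 13 reads per AAV-NC liver and 19 to 52 per AAV-TuD liver. *Col6a2* was at 0.836, 1.26, 1.11, 1.0 and 0.779 CPM against 1.73 to 4.05 CPM, with a median of 2.33 CPM, and was the least abundant member in AAV-NC livers, with 7 to 10 reads each. *Col6a3* was at 2.86, 4.15, 3.76, 2.13 and 3.89 CPM against 7.33 to 14.6 CPM, with a median of 11.8 CPM. It had the highest level of the type VI chains in every liver. The log2 fold changes were 1.43 ± 0.25 (SE; edgeR, adjusted P = 0.00282) for *Col6a1*, 1.37 ± 0.28 (SE; edgeR, adjusted P = 0.0061) for *Col6a2* and 1.76 ± 0.19 (SE; edgeR, adjusted P = 7.88e-05) for *Col6a3*. The 3 chains together went from 5.71 ± 0.978 to 17.6 ± 3.98 CPM. With the 3 *Mup*-rich livers left out, *Col6a2* no longer reached the read minimum, and the other 9 chains were called.

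The 10 chains did not all change by the same factor. The log2 ratio of chain levels was taken in each liver for 9 pairs and compared between groups by a two-sided exact permutation test over the 462 splits of the livers, with P adjusted over the 9 pairs; the smallest P this test can give is 0.00216. Reads per molecule may differ between genes, so a ratio is compared between groups and not with the make-up of the protein. *Col1a1* gained on its partner *Col1a2*: the ratio had a geometric mean of 0.232 in AAV-NC livers and 0.407 in AAV-TuD livers, a log2 difference of 0.82 ± 0.11 (SE; exact P = 0.00216, adjusted 0.00974). The log2 ratios in AAV-NC livers 1, 2, 6, 7 and 8 were -2.27, -2.06, -2.18, -2.24 and -1.81, and those in AAV-TuD livers ran from -1.61 to -1.14. The groups did not overlap.

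*Col1a1*, the chain with the largest change, also gained on *Col4a1*, *Col6a1* and *Col5a2*, the only chains of their types set against it. Its ratios to *Col4a2*, *Col5a1*, *Col6a2* and *Col6a3* were not tested. *Col4a1* was at 2.63 times the level of *Col1a1* in AAV-NC livers and 1.12 times in AAV-TuD livers (log2 difference -1.23 ± 0.23, exact P = 0.00433, adjusted 0.00974). The ratio of *Col6a1* to *Col1a1* went from 0.501 to 0.267 (-0.91 ± 0.21, exact P = 0.00216, adjusted 0.00974), and that of *Col5a2* to *Col1a1* from 0.455 to 0.202 (-1.17 ± 0.29, exact P = 0.00433, adjusted 0.00974). These 3 comparisons and the first share *Col1a1* and are not independent of one another. A difference between the changes of *Col3a1* and *Col1a1* was not detected (-0.32 ± 0.19, exact P = 0.0996, adjusted 0.159).

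No difference was detected for the other pairs within a collagen type. For *Col4a1* to *Col4a2*, whose first exons overlap, the log2 difference was -0.13 ± 0.13 (exact P = 0.45, adjusted 0.579), and for *Col6a1* to *Col6a2* it was 0.10 ± 0.15 (exact P = 0.539, adjusted 0.606). It was 0.05 ± 0.30 for *Col5a1* to *Col5a2* (exact P = 0.887, adjusted 0.887) and 0.44 ± 0.26 for *Col6a3* to *Col6a1* (exact P = 0.106, adjusted 0.159). Leaving out AAV-NC 2 brought *Col3a1* to *Col1a1* past the threshold (log2 difference -0.47, exact test, adjusted P = 0.0257), and leaving out AAV-NC 8 did so for *Col6a3* to *Col6a1* (0.62, exact test, adjusted P = 0.0171).

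**Figure D2:**
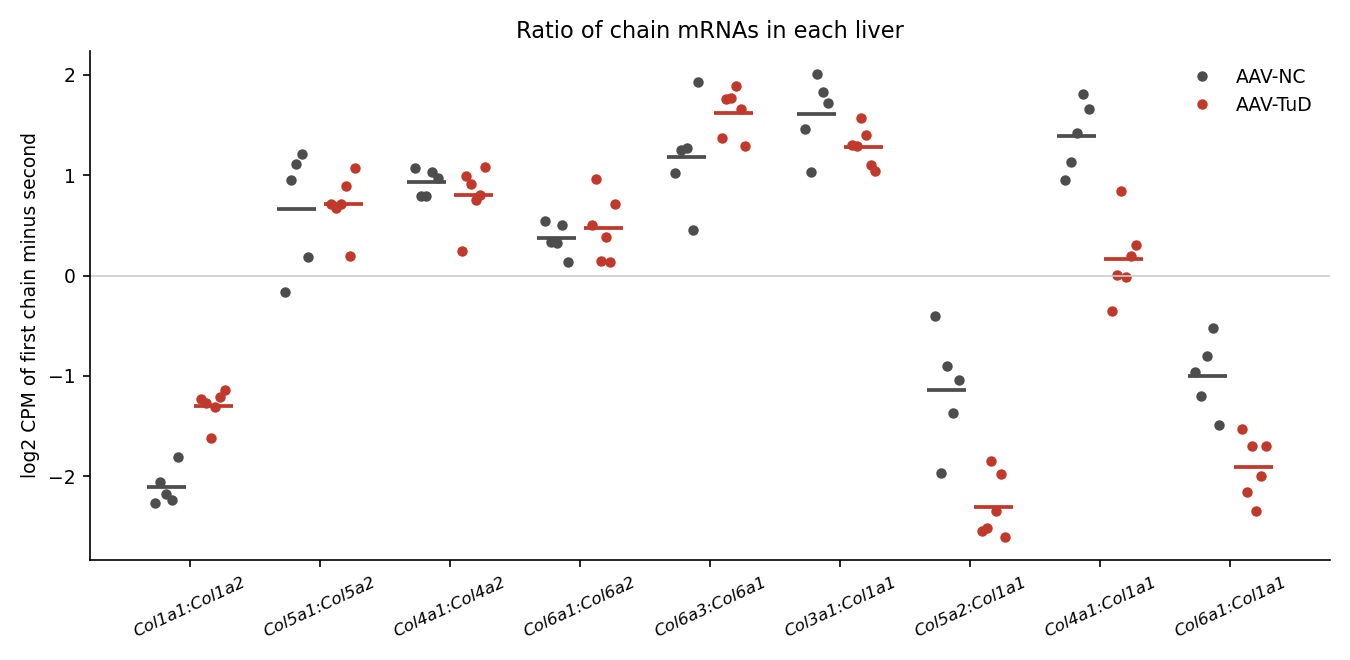
Log2 CPM of the first chain minus that of the second for 9 pairs, one point per liver, in AAV-NC (gray) and AAV-TuD (red) livers; the bars are group means. *Col1a1* to *Col1a2* lies between -2.27 and -1.81 in AAV-NC livers and between -1.61 and -1.14 in AAV-TuD livers, while *Col4a1* to *Col4a2* overlaps fully.

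Livers also differed within a group, and the chains tended to deviate together. AAV-TuD 5 had the lowest level of its group for 8 of the 10 chains and lay 0.56 below the group mean on the log2 scale, averaged over the chains, while AAV-TuD 10 was highest for 7 and lay 0.44 above. Among controls, AAV-NC 2 was highest for 6 chains, by a mean of 0.18. Deviations from the group means over the 11 livers gave Pearson correlations between 0.01 and 0.91 for the 45 pairs of chains, with a median of 0.47, and 16 were above 0.5. The highest was that of *Col1a1* with *Col1a2* and the lowest that of *Col5a2* with *Col4a2*. These correlations share the libraries and their scaling and are given as a description.

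**Figure D3:**
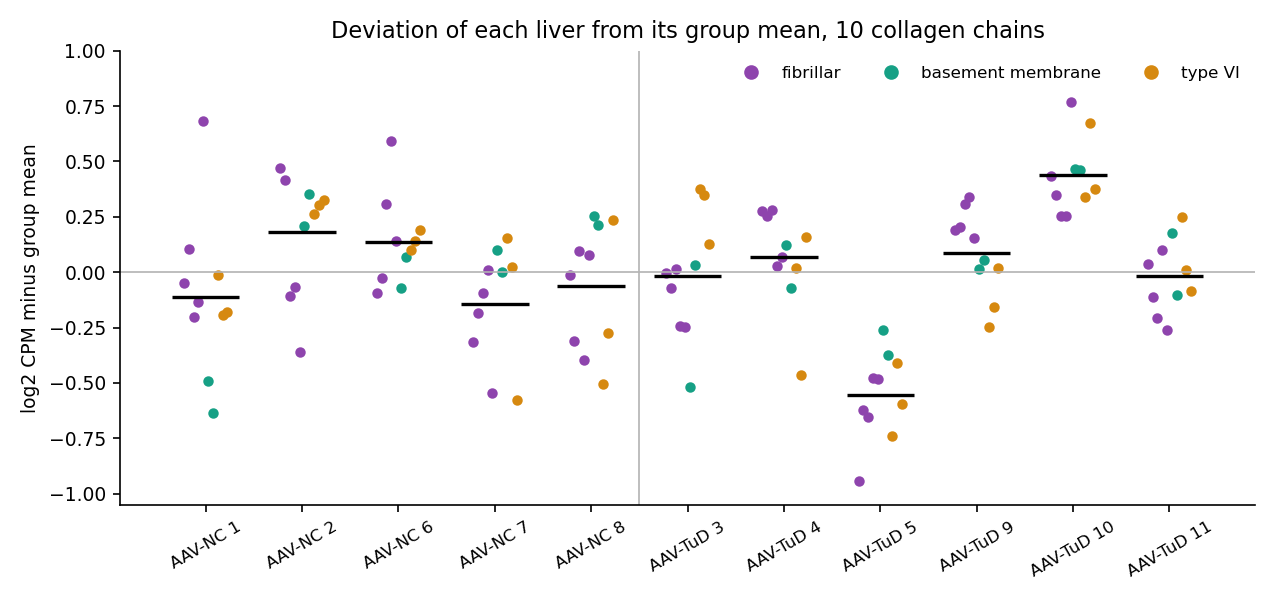
Log2 CPM minus the group mean for each of the 10 chains (points, colored by collagen type) in each of the 11 livers; black bars are the mean over the chains. AAV-TuD 5 lies at -0.56 and AAV-TuD 10 at 0.44, while the other livers have means between -0.14 and 0.18.

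Of the other 34 collagen genes listed, 11 were tested, 5 were called higher and 1 lower, where 7.24% and 4.33% of all genes were. The median log2 fold change of the 11 was 0.15. That median ranged from 0.04 without AAV-TuD 11 to 0.27 without AAV-NC 8, and was 0.09 without the 3 *Mup*-rich livers and 0.37 with library size alone. *Col4a5*, a basement membrane chain, rose by 2.33 ± 0.46 on the log2 scale, from 0.258 ± 0.145 to 1.30 ± 0.559 CPM (edgeR, adjusted P = 0.00521). *Col14a1*, a fibril-associated chain, rose from 28.2 ± 6.86 to 44.9 ± 5.0 CPM (log2 fold change 0.67, edgeR, adjusted P = 0.00599), and *Col16a1*, *Col4a4* and *Col8a1* were also called. Of the 5, *Col4a5*, *Col4a4* and *Col8a1* had over 10 reads in 0 AAV-NC livers, so they entered the test only through AAV-TuD livers, and the count of 5 is no measure of the list. *Col16a1* had that many in 2 AAV-NC livers and 6 AAV-TuD livers, so the filter favored a higher level for it too. *Col27a1* went the other way, from 99.3 ± 23.8 to 52.9 ± 19.2 CPM (log2 fold change -0.91, edgeR, adjusted P = 0.0125). *Col18a1*, the source of endostatin and the most abundant collagen mRNA in these livers, was at 226 ± 23.6 and 232 ± 30.6 CPM (log2 fold change 0.04, edgeR, adjusted P = 0.866). The remaining 4 (*Col5a3*, *Col13a1*, *Col15a1*, *Col4a3*) were not called. The count of 5 fell to 3 without AAV-TuD 3, 4, 9, 10 or 11, and to 2 without the 3 *Mup*-rich livers.

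**Figure D4:**
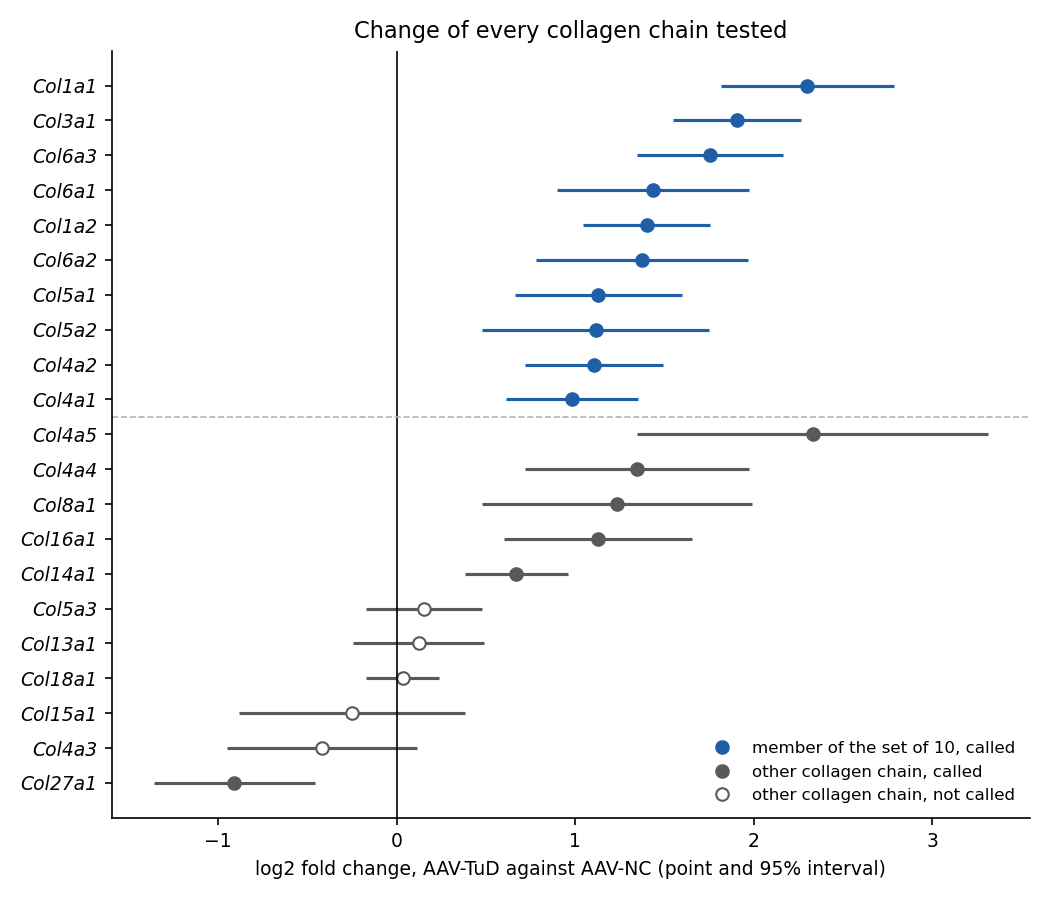
Log2 fold change with 95% interval of the 21 collagen chains tested, the 10 members in blue and the other 11 in gray; open circles were not called. The members lie between 0.98 and 2.30, and the other chains between -0.91 and 2.33.

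Collagen chains are hydroxylated and folded in the endoplasmic reticulum before they are secreted. Of 21 genes listed for these steps, 16 were tested, 2 were called higher and 1 lower, where 7.24% and 4.33% of all genes were. The median log2 fold change was -0.12, which was 0.12 when library size alone was used for scaling, -0.08 without AAV-NC 1, AAV-NC 7 or AAV-TuD 9 and -0.04 without the *Mup*-rich livers. *Serpinh1*, the collagen chaperone HSP47, went from 3.81 ± 1.63 to 6.44 ± 0.601 CPM (log2 fold change 0.76, edgeR, adjusted P = 0.0363). *Plod2*, a lysyl hydroxylase, went from 0.607 ± 0.472 to 1.51 ± 0.347 CPM (1.33, edgeR, adjusted P = 0.0389). It had over 10 reads in 1 AAV-NC liver and 6 AAV-TuD livers, so the filter favored a higher level. *Mia3*, which helps to load procollagen into transport carriers, fell from 198 ± 22.4 to 158 ± 14.7 CPM (-0.33, edgeR, adjusted P = 0.0231). *P4hb*, the shared subunit of the prolyl hydroxylases and the most abundant of the list, was at 349 ± 24.1 and 319 ± 19.6 CPM (-0.13, edgeR, adjusted P = 0.261). The *Serpinh1* and *Plod2* calls depended on single livers: 0 genes of the list were called higher without AAV-NC 1, AAV-NC 8, AAV-TuD 9, AAV-TuD 10 or AAV-TuD 11, and 1 without AAV-NC 2, AAV-NC 7, AAV-TuD 4, AAV-TuD 5 or the 3 *Mup*-rich livers. *Mia3* was not called without AAV-NC 1, without AAV-NC 6, without the *Mup*-rich livers or with library size alone.

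Outside the cell, procollagen is trimmed and crosslinked. Of 15 genes listed for this, 8 were tested and 5 were called higher, where 7.24% of all genes were. The list had a median log2 fold change of 0.97. *Sparc*, which binds collagen in the matrix, rose from 46.8 ± 4.55 to 87.5 ± 15.5 CPM (log2 fold change 0.90, edgeR, adjusted P = 0.000252). *Loxl2*, a lysyl oxidase that crosslinks collagen, rose from 2.66 ± 0.431 to 5.54 ± 0.808 CPM (1.07, edgeR, adjusted P = 0.00109). The N-propeptidase *Adamts2*, the enhancer protein *Pcolce* and the crosslinking enzyme *Loxl1* were the other 3 called, and *Bmp1*, the C-propeptidase, was not (log2 fold change -0.23). *Loxl1* had over 10 reads in 0 AAV-NC livers and entered the test only through AAV-TuD livers. *Adamts2* had that many in 4 AAV-NC livers and 6 AAV-TuD livers, so the filter favored a higher level for it too. Without the *Mup*-rich livers 4 were called.

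Collagen is broken down by matrix metalloproteinases and cathepsins, which have their own inhibitors. Of 16 such genes listed 7 were tested, and 4 were called higher, where 7.24% of all genes were. The list had a median of 0.65. *Mmp2*, a gelatinase, rose from 0.396 ± 0.173 to 2.22 ± 0.941 CPM (log2 fold change 2.48, edgeR, adjusted P = 0.00116). *Mmp12*, a macrophage elastase, was at 0.0867 ± 0.12 CPM with AAV-NC, near the detection limit, and at 1.64 ± 0.702 CPM with AAV-TuD (log2 fold change 4.0, edgeR, adjusted P = 0.00112). *Mmp15* and the inhibitor *Timp2* were the other 2 called, and *Ctsl*, the most abundant, was at 178 ± 9.81 and 175 ± 23.9 CPM (-0.03, edgeR, adjusted P = 0.878). *Mmp2* and *Mmp12* had over 10 reads in 0 AAV-NC livers, so they entered the test only through AAV-TuD livers and are no support for the count of 4. Without the 3 *Mup*-rich livers 2 were called higher, with a median of 0.34.

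Of 10 collagen receptors listed, 6 were tested and 5 were called higher, where 7.24% of all genes were. The list had a median of 0.89. *Ddr2*, a receptor tyrosine kinase for fibrillar collagen, rose from 4.76 ± 1.19 to 8.61 ± 1.6 CPM (log2 fold change 0.87, edgeR, adjusted P = 0.00576), and *Lair1*, an inhibitory receptor of leukocytes, from 3.0 ± 0.474 to 5.66 ± 1.39 CPM (0.91, edgeR, adjusted P = 0.0066). *Ddr1*, *Adgrg1* and *Itga1* were also called, and 4 of the list without the *Mup*-rich livers. *Ddr1* had over 10 reads in 2 AAV-NC livers and *Adgrg1* in 4, against 6 AAV-TuD livers each. For these the filter favored a higher level, so they are no support for the count of 5. *Itgb1*, the beta subunit of collagen-binding integrins, was at 101 ± 3.47 and 112 ± 13.2 CPM (0.16, edgeR, adjusted P = 0.229).

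The partners of type IV collagen in basement membranes were 18 listed genes, of which 13 were tested. Of these, 5 were called higher, where 7.24% of all genes were, and the list had a median of 0.45. *Smoc2*, a matricellular protein, rose from 2.88 ± 1.17 to 10.5 ± 3.36 CPM (log2 fold change 1.87, edgeR, adjusted P = 0.000618). The laminin chain *Lamb1* rose 2.04-fold (log2 fold change 1.03, edgeR, adjusted P = 0.00385) and *Nid1*, which links laminin to type IV collagen, from 9.70 ± 0.975 to 17.4 ± 6.17 CPM (0.85, edgeR, adjusted P = 0.0184). *Lamb2* and *Lama1* completed the 5. *Lamb2* had over 10 reads in 4 AAV-NC livers and *Lama1* in 2, against 6 AAV-TuD livers each, so the filter favored a higher level. *Lama3*, which was not called, went the other way (log2 fold change -0.87, edgeR, adjusted P = 0.0566). DESeq2 called 1 gene of the list lower, and so did edgeR without the *Mup*-rich livers. The median was 0.70 with library size alone.

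Markers of cells known to make collagen were examined beside the chains. Of 18 stellate cell markers 17 were tested and 9 were called higher, where 7.24% of all genes were. The list had a median log2 fold change of 0.73. Its summed level was between 294 and 359 CPM in AAV-NC livers and between 450 and 596 CPM in AAV-TuD livers. *Dcn*, which encodes decorin, rose by 0.79 and *Cygb*, cytoglobin, by 1.11 on the log2 scale (edgeR, adjusted P = 0.000231 and 0.000447). The retinol acyltransferase *Lrat*, a defining marker of the cell, was among the 9. Leaving out TMM scaling raised the count to 14. *Pdgfrb*, also among the 9, exceeded the read minimum of the filter in 3 AAV-NC livers and 6 AAV-TuD livers. *Des* did so in 2 and 5 and *Bmp5* in 2 and 6, and neither was called. For these genes the filter favored a higher level, so *Pdgfrb* is no support for the count of 9. The list median includes all of them and has the same limit.

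Of 12 markers of activated stellate cells and myofibroblasts, 7 were tested and 2 were called higher, where 7.24% of all genes were. The list had a median of 0.66, which was 0.42 without AAV-NC 7 and 0.91 without AAV-NC 2. *Myl9* exceeded the read minimum of the filter in 0 AAV-NC livers and 5 AAV-TuD livers. *Ccn2* and *Spon2* did so in 4 and 6 each, and *Tnfrsf12a* in 4 and 5. None of these genes was called, but the filter favored a higher level for them, so the median is no measure of the list. *Lum* rose by 1.42 and *Vim* by 0.94 on the log2 scale (edgeR, adjusted P = 0.001 and 0.0104). The contractile genes that define this state, *Acta2*, *Tagln* and *Cnn1*, were not among the genes tested, nor were *Cthrc1* and *Tnc*, and the sum of the list was between 16.4 and 35.4 CPM against 27.3 and 51.8 CPM. Portal fibroblast markers were low, at 3.94 to 6.64 CPM against 7.33 to 15.8 CPM in sum. Only 3 of 12 were tested, with a median of 1.02, and *Eln* and *Dpt* were called (log2 fold changes 1.23 and 1.02, edgeR, adjusted P = 0.0201 and 0.0304); 1 of the 3 was called without AAV-NC 1, 7 or 8, without AAV-TuD 9, or without the *Mup*-rich livers. *Eln* and the uncalled *Cd34* exceeded the read minimum in 1 AAV-NC liver and 5 AAV-TuD livers each, so the filter favored a higher level. The defining *Thy1* and *Gli1* were not among the genes tested.

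Endothelial cells contribute type IV collagen. All 18 markers of sinusoidal endothelium were tested and 2 were called higher (*Eng* by 0.40 and *Maf* by 0.28 on the log2 scale, edgeR, adjusted P = 0.0269 and 0.0481), where 7.24% of all genes were, with a median of 0.02 (0.00 to 0.05 with 1 liver left out, 0.26 with library size alone). The sum was between 505 and 572 CPM against 540 and 595 CPM, and the count was 0 without AAV-NC 6 or AAV-TuD 10 and 1 without AAV-NC 1, 2, 7 or 8, AAV-TuD 4, 5 or 9, or the *Mup*-rich livers, and 1 with the size factors of DESeq2 in edgeR or with no filter. In other cell types, 8 of 11 tested Kupffer cell markers (median 0.89, sum 127 to 189 CPM against 143 to 407 CPM) and 6 of 8 tested cholangiocyte markers (median 1.14, sum 102 to 141 CPM against 167 to 211 CPM) were called higher, where 7.24% of all genes were. Among them, *Vsig4* rose by 0.93 and *C1qc* by 0.84 (Kupffer cells), and *Spp1* by 2.20 and *Epcam* by 2.0 (cholangiocytes), on the log2 scale. The cholangiocyte median was 0.79 to 1.34 with 1 liver left out, and without the *Mup*-rich livers it was 0.68, with 4 called. *Epcam* and *Krt23* of the 6 had over 10 reads in 0 AAV-NC livers and entered the test only through AAV-TuD livers. *Krt19* had that many in 1 AAV-NC liver and 5 AAV-TuD livers, and *Cd68* of the Kupffer cell markers in 4 and 6. The filter favored a higher level for both. Of 14 hepatocyte markers 0 were called higher (1, *Alb*, at an unadjusted P under 0.05) and 2 lower, *Apob* among them (-0.40), by edgeR, where 7.24% and 4.33% of all genes were. DESeq2 and limma-voom each called 1 of the 14 higher and 4 lower. The median log2 fold change of the hepatocyte markers was -0.16, which was 0.07 with library size alone, where 0 were called lower. The part that these cell types had in the collagen levels was not tested.

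**Figure D5:**
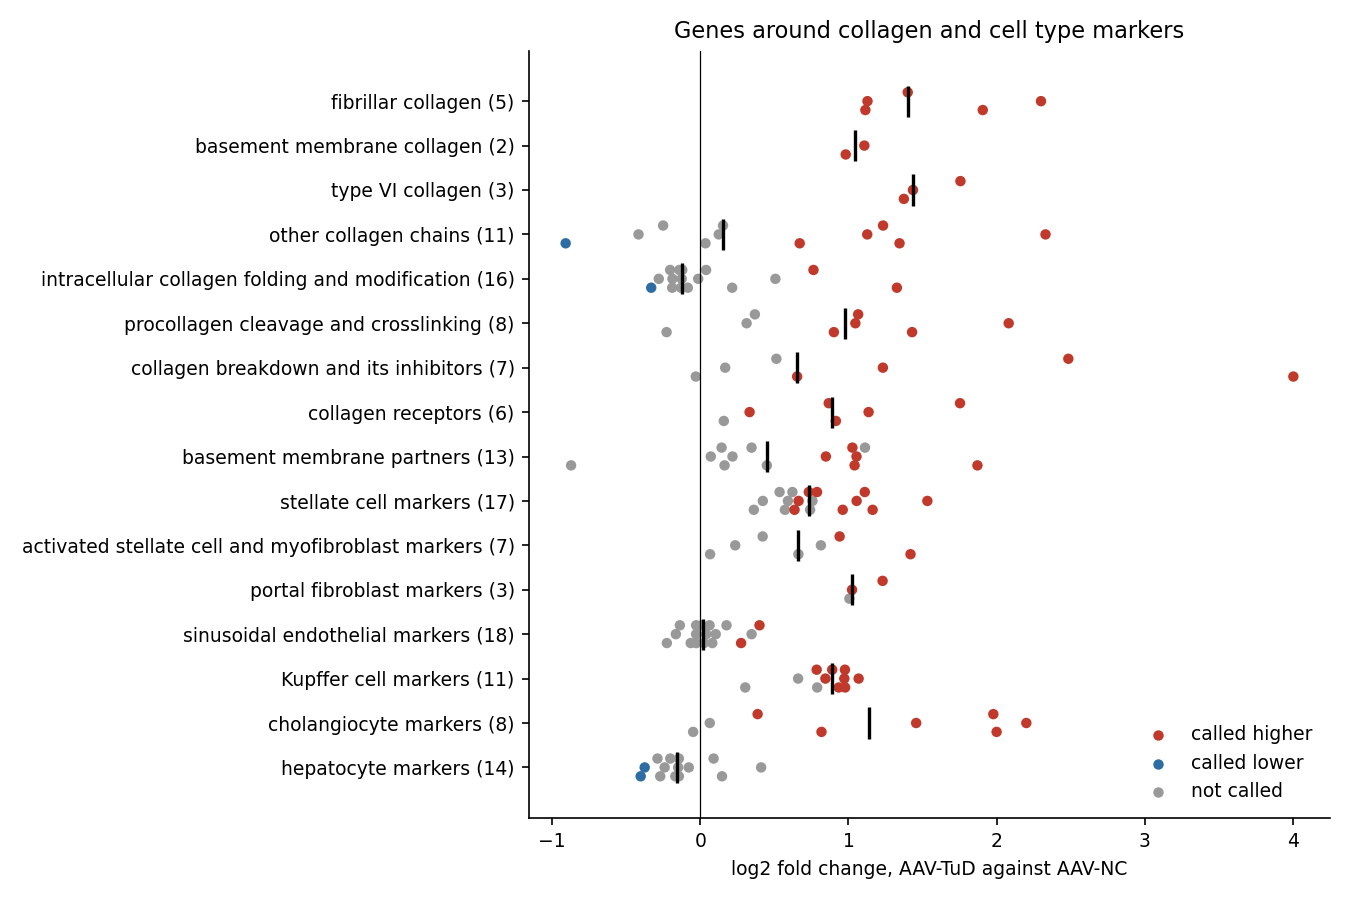
Log2 fold change of every tested gene of 16 lists (number tested in brackets), called higher (red), called lower (blue) or not called (gray); vertical bars are list medians. All collagen members lie to the right of 0, with medians of 1.40, 1.04 and 1.43 by type, whereas the folding genes have a median of -0.12 and the sinusoidal endothelial markers of 0.02.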

How the data were processed

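Liver RNA of 5 AAV-NC and 6 AAV-TuD mice was isolated with TRIzol and miRNeasy and made into QuantSeq 3′ mRNA-Seq V2 libraries, which were sequenced on a HiSeq4000. BBDuk trimming, alignment to GRCm38 by STAR 2.5.3a and counting by Rsubread were done by the authors, and the deposited values are raw counts per gene. The annotation and the treatment of multi-mapping reads are not given in the sources used here. Depth was 8148531 to 12043959 reads per liver, which limits precision for chains with about 10 reads.

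A gene was tested when its count exceeded 10 in 5 livers or more, with edgeR 4.0.16 (R 4.3.3; TMM, quasi-likelihood, no covariates), checked on simulated counts. The authors' own test was DESeq2 1.38.3. Log2 CPM used a prior count of 2. Alternatives were DESeq2 1.42.0, its size factors, upper-quartile factors, library size alone, limma-voom (limma 3.58.1) with quality weights, no filter, the edgeR filter, the 50 largest genes removed, and omission of each liver in turn; omission of 3 livers with over 25% *Mup* reads was chosen after seeing the data. For chain ratios, raw counts with a pseudocount of 0.5 were the alternative. Libraries were compared in pairs within each group, and no such pair was a duplicate. Pairs across the groups were not compared. The members and gene lists were chosen with earlier results of these data known. Genes named from a list were up to 2 higher and 1 lower with the smallest P and the most abundant. *Col16a1*, *Col4a4*, *Col8a1*, *Col5a3*, *Col13a1*, *Col15a1*, *Col4a3*, *Adamts2*, *Pcolce*, *Loxl1*, *Bmp1*, *Mmp15*, *Timp2*, *Ddr1*, *Adgrg1*, *Itga1*, *Lamb2*, *Lama1*, *Lama3*, *Lrat*, *Pdgfrb*, *Bmp5*, *Des*, *Myl9*, *Ccn2*, *Spon2*, *Tnfrsf12a*, *Cd34*, *Cd68*, *Krt19*, *Krt23* and the markers outside the tested genes were named after their values were seen. Positions are from GENCODE M21.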

Additional observations from a re-analysis of the deposited data

Results flagged for a closer look

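Dixon's test of the lowest and highest liver was applied to 38 groups of values, of which chance alone flags about 1.9, and 2 were flagged. *Col1a1* in AAV-TuD 5 had a log2 CPM of 2.85 against 3.79 in the nearest liver, a gap of 0.681 of the group's range. The log2 ratio of *Col1a1* to *Col1a2* in the same liver was -1.61 against -1.31, a gap of 0.653 of the range. AAV-TuD 5 was also one of the 3 livers rich in *Mup* reads, with 28.4%, and whether this bears on its collagen values was not tested. Without AAV-TuD 5 or any other liver, the log2 fold change of *Col1a1* remained between 2.21 and 2.44.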

How the results depend on the processing

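All 10 chains were called higher under each planned tool, scaling and filter. With library size alone, log2 fold changes had a median of 0.23 over all genes and of 1.64 over the chains (1.25 to 2.56), and 95.1% of all calls were higher against 62.6% with TMM. With 1 liver left out in turn, 9 or 10 chains were called. *Col5a2* ranged from 0.91 to 1.34, at 1.02 without AAV-NC 2, 0.99 without AAV-NC 7 and 0.91 without AAV-TuD 10, where edgeR's adjusted P was 0.0593, 0.0590 and 0.0512. The number of all genes called ranged from 1012 (without AAV-TuD 4) to 1829 against 1543. The difference for *Col3a1* to *Col1a1* ranged from -0.47 to -0.22 and that for *Col6a3* to *Col6a1* from 0.25 to 0.62, and each passed the threshold in 1 case, without AAV-NC 2 (-0.47) and without AAV-NC 8 (0.62). No result for a chain or pair reversed as a call. Without the 3 *Mup*-rich livers, 9 chains were called, *Col6a2* was not tested and *Col5a2* was at 1.16 (edgeR, adjusted P = 0.0322). The causes were not tested. No paired analysis was possible because the groups share no replicate number. Depth limits *Col5a2*, *Col6a1* and *Col6a2* most.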

Other observations

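The genes whose deviations from the group means were most like those of 3 members were listed among 8366 genes that averaged 50 reads or more, over the 11 livers, as a description. For *Col1a1* they were *Fstl1*, which encodes follistatin-like 1 (Pearson r 0.943), *Uqcc6* (0.921) and *Ift46* (0.904). *Uqcc6* was called lower (log2 fold change -0.36, edgeR, adjusted P = 0.0493) and *Ift46* was not called. *Fstl1* was called higher with AAV-TuD, from 3.70 to 8.14 CPM (log2 fold change 1.14, edgeR, adjusted P = 0.0026). For *Col4a1* they were *Smagp* (0.944), *Nt5c3* (0.937) and *Ccdc191* (0.934), none of which was called. For *Col6a1* they were *Gm12469* (0.917), *Tmem87b* (0.91) and *Mcc* (0.902), none of which was called.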
